A study of Mus musculus with 9 samples.

Results

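The Slc25 genes encode the mitochondrial carrier family, and 35 of them were followed in RAW264.7, a macrophage-like line from mouse. The 35 are every Slc25 symbol listed with an FPKM value in all 9 libraries, other than Slc25a1, Slc25a10 and Slc25a11, among 12474 rows in all. Among the listed rows, membership rests on the symbols alone and not on the size of any measured value. Only genes detected in every library are listed, so membership does depend on detection. All 35 matched protein-coding genes of the GENCODE vM21 annotation of GRCm38, and they lie on 17 chromosomes.

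Members of this family are small proteins of the inner mitochondrial membrane that exchange one soluble compound for another between cytosol and matrix. They carry nucleotides, phosphate, amino acids, acylcarnitines, coenzymes, iron and glutathione, and a few sit instead in the outer mitochondrial membrane or in peroxisomes. They have no cleaved presequence in most cases and reach the inner membrane through the outer membrane receptor TOM70, small TIM chaperones and the TIM22 complex. Activated macrophages are known for a shift towards glycolysis with altered mitochondrial metabolism, which makes these exchange steps of interest in this cell type.

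Poly(A) RNA was sequenced from wild-type RAW264.7 cells in 3 groups of 3 libraries. The group I received lipopolysaccharide (LPS) at 100 ng/ml, mouse interferon gamma at 50 ng/ml and potassium iodide at 20 mM. The group M1 received LPS and interferon gamma at those doses without the salt, and Mock cells are the untreated control. The series asks how iodide ions alter expression during M1 polarization, the inflammatory activation of macrophages by LPS and interferon gamma. There was no control with another salt, so effects of the iodide, of potassium itself and of osmolarity cannot be told apart, and the labels give no treatment time. All libraries come from 1 continuous cell line, and nothing says that they were separate cultures. The p-values below therefore reflect how far these libraries scatter, and that scatter may be technical.

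The depth recovered from the FPKM values was 18370400 to 21202240 fragments in I, 17765680 to 21867430 in M1 and 17431070 to 25470730 in Mock, and Pearson's r within groups was 0.9968 to 0.9973 across rows. All 9 macrophage marker genes searched for were in the files, with a summed level of 2392 to 2506 FPKM in I, 3277 to 3380 in M1 and 4618 to 4713 in Mock. Within that sum, Lyz2 averaged 675 FPKM in I, 1138 in M1 and 3155 in Mock. Cd14 averaged 1326 FPKM in I, 1550 in M1 and 752 in Mock, so the markers did not move together. At a limma adjusted p under 0.05, 2 of the 8 markers tested were higher and 6 lower in I vs M1. Over all rows tested, 24.9% were higher and 39.3% lower. In M1 vs Mock, 4 of the markers were higher and 4 lower, beside 30.5% and 55.3% of all rows. Their part in the carrier results was not tested. The markers searched for T cells, B cells, neutrophils, epithelial cells and fibroblasts are not among the rows and were not analysed here. In bulk RNA, fewer cells of a type and less RNA per cell cannot be told apart.

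With potassium iodide the ADP/ATP carriers Slc25a5 and Slc25a4 and the mitochondrial iron carrier Slc25a37 were lower, while the pyrimidine nucleotide carrier Slc25a36 was higher. To show the genomic context of such members, the bases upstream of 3 of them are printed from the RefSeq table on GRCm38.p6, each read 5′ to 3′ on the gene's strand and ending before both the RefSeq and the GENCODE start. Slc25a5 and Slc25a45 are members that fell in I vs M1, and Slc25a36 is a member that rose. Capitals mark matches to the motifs described after the sequences.
Slc25a5, chrX:36795347-36795596, plus strand: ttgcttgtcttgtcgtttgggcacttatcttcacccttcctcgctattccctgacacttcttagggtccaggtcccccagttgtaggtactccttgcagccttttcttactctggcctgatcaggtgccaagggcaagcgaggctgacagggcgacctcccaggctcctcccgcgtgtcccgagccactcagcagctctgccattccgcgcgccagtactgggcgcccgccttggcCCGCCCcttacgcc
Slc25a45, chr19:5877572-5877807, plus strand: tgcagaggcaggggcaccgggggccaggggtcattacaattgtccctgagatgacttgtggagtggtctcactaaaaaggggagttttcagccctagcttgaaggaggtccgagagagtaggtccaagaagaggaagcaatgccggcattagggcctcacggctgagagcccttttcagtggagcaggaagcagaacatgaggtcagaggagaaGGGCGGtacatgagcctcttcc
Slc25a36, chr9:97111158-97111291, minus strand: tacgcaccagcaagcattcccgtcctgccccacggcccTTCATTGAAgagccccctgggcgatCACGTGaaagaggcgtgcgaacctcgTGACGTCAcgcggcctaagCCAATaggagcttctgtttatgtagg

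The motifs searched on both strands were the GC box (GGGCGG), the CCAAT box (CCAAT), the E-box (CACGTG), the cAMP response element (TGACGTCA), the interferon gamma activated site or GAS (TTCNNNGAA), and, with degenerate letters, the consensus forms of the interferon-stimulated response element (ISRE) and of the NF-kB site. They were chosen after the values had been seen, and none of the matches printed overlaps another. A window of 250 bases before a RefSeq start was given for 27 of the 35 members, and several starts of one gene were searched together. Upstream of Slc25a36 stood a GAS match at -212 to -204 from the RefSeq start, an E-box at -187 to -182, a cAMP response element at -161 to -154 and a CCAAT box at -142 to -138. Slc25a5 and Slc25a45 each held a GC box in the stretch shown, at -14 to -9 and at -36 to -31. Slc25a36 held a GC box too, outside the bases printed for it, so this motif does not separate the 3 members. Over the 27 members, 19 held the GC box, against 35.4% of the 27025 genes in the table. The CCAAT box was in 13 members (37.5% of genes), the E-box in 5 (6.86%), the cAMP response element in 2 (1.77%), the ISRE in 1 (1.34%) and the GAS form in 1 (8.13%). The NF-kB form was in 0 of the 27 windows and in 4.46% of genes. A match describes letters only and says nothing of binding in these cells.

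Levels spanned a wide range. Slc25a5 had the highest mean FPKM of the family and ranked 119th of 12474 rows in I, 74th in M1 and 49th in Mock. A mean over all libraries above 10 FPKM was reached by 14 members, and 6 members stayed under 1 FPKM. Rows with at least 0.5 FPKM in at least 3 libraries were tested with limma on log2(FPKM + 1), which took in 33 members. Slc25a18 and Slc25a53 lay below that filter. Slc25a35 passed it only through its 3 Mock libraries, so a lower level in the other groups was built into its entry.

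**Figure D1:**
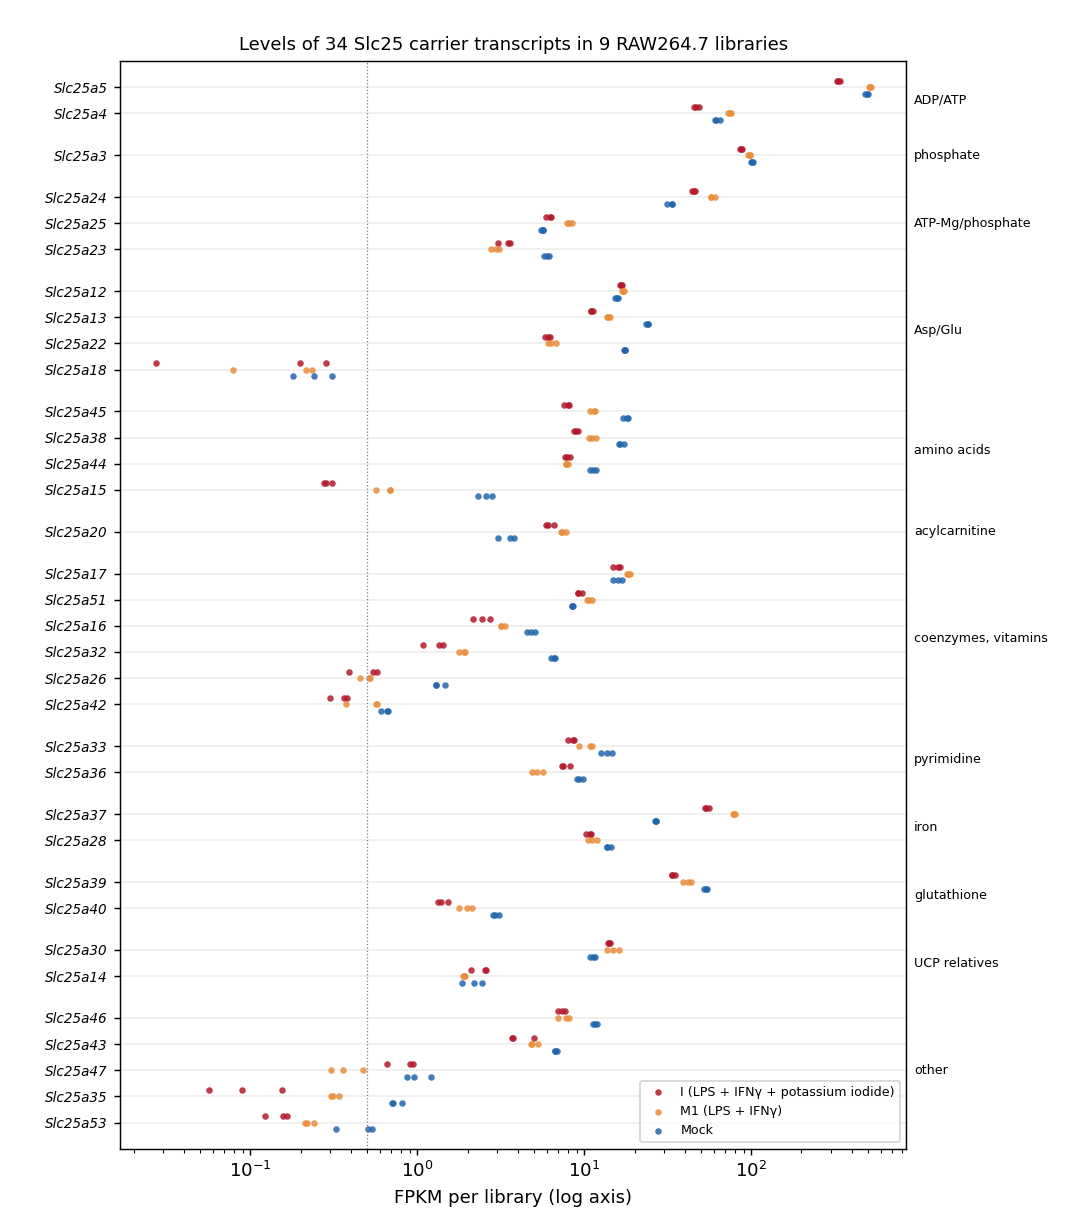
FPKM of 34 Slc25 transcripts in each library on a log axis, by substrate group, with I, M1 and Mock from top to bottom within a row and the dotted line at 0.5 FPKM. Slc25a5 lies apart at the right (325 to 519 FPKM), and Slc25a37 shows M1 farthest right and Mock farthest left, with I between them.

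With potassium iodide, more carriers were lower than higher. In I vs M1, 20 of the 33 tested members were lower at a limma Benjamini-Hochberg adjusted p under 0.05, 4 were higher and 9 were not called. Over all 11156 rows tested, 39.3% were lower and 24.9% higher in that comparison, and the members' shares were 60.6% and 12.1%. The median log2 fold change was −0.22 for the members and −0.07 for all rows. With the pseudocount of 1, which shrinks differences at low levels, no member exceeded a log2 fold change of 0.5 upward (5.51% of all rows did), and 3 members fell by more than 0.5, namely Slc25a4, Slc25a5 and Slc25a37 (7.66% of all rows). Of the 4 higher members, Slc25a14 and Slc25a23 lost their call when single libraries were left out, and the count of higher members was then 2 to 4. It was 2 without the first or the third library of I or of M1.

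Polarization without the salt moved members both ways. In M1 vs Mock, 10 of the 33 members were higher, 19 were lower and 4 were not called. The 19 include Slc25a35, which entered the test only through its Mock libraries. The background over all rows was 30.5% higher and 55.3% lower, close to the members' 30.3% and 57.6%. The median was −0.36 for the members and −0.23 for all rows. A log2 fold change above 1 was seen for Slc25a37 (6.78% of all rows exceeded it) and one below −1 for Slc25a15, Slc25a22 and Slc25a32 (16.1% of all rows). Median-of-ratios (RLE) scaling put the median row at 0.02 in M1 vs Mock and gave 12 higher and 15 lower members, beside 43.9% and 41.7% of all rows. It left the I vs M1 split at 4 higher and 19 lower, beside 30.6% and 32.6% of all rows.

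Set against Mock, I had 8 members higher, 22 lower and 3 not called, with 28.2% of all rows higher and 58.6% lower. The 22 also include Slc25a35, whose entry rested on Mock. RLE scaling changed the counts to 11 higher and 18 lower, beside 43.2% and 42.4% of all rows. The comparisons I vs M1 and M1 vs Mock share the M1 libraries, so their values are given side by side for each member and no relation between them is drawn.

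**Figure D2:**
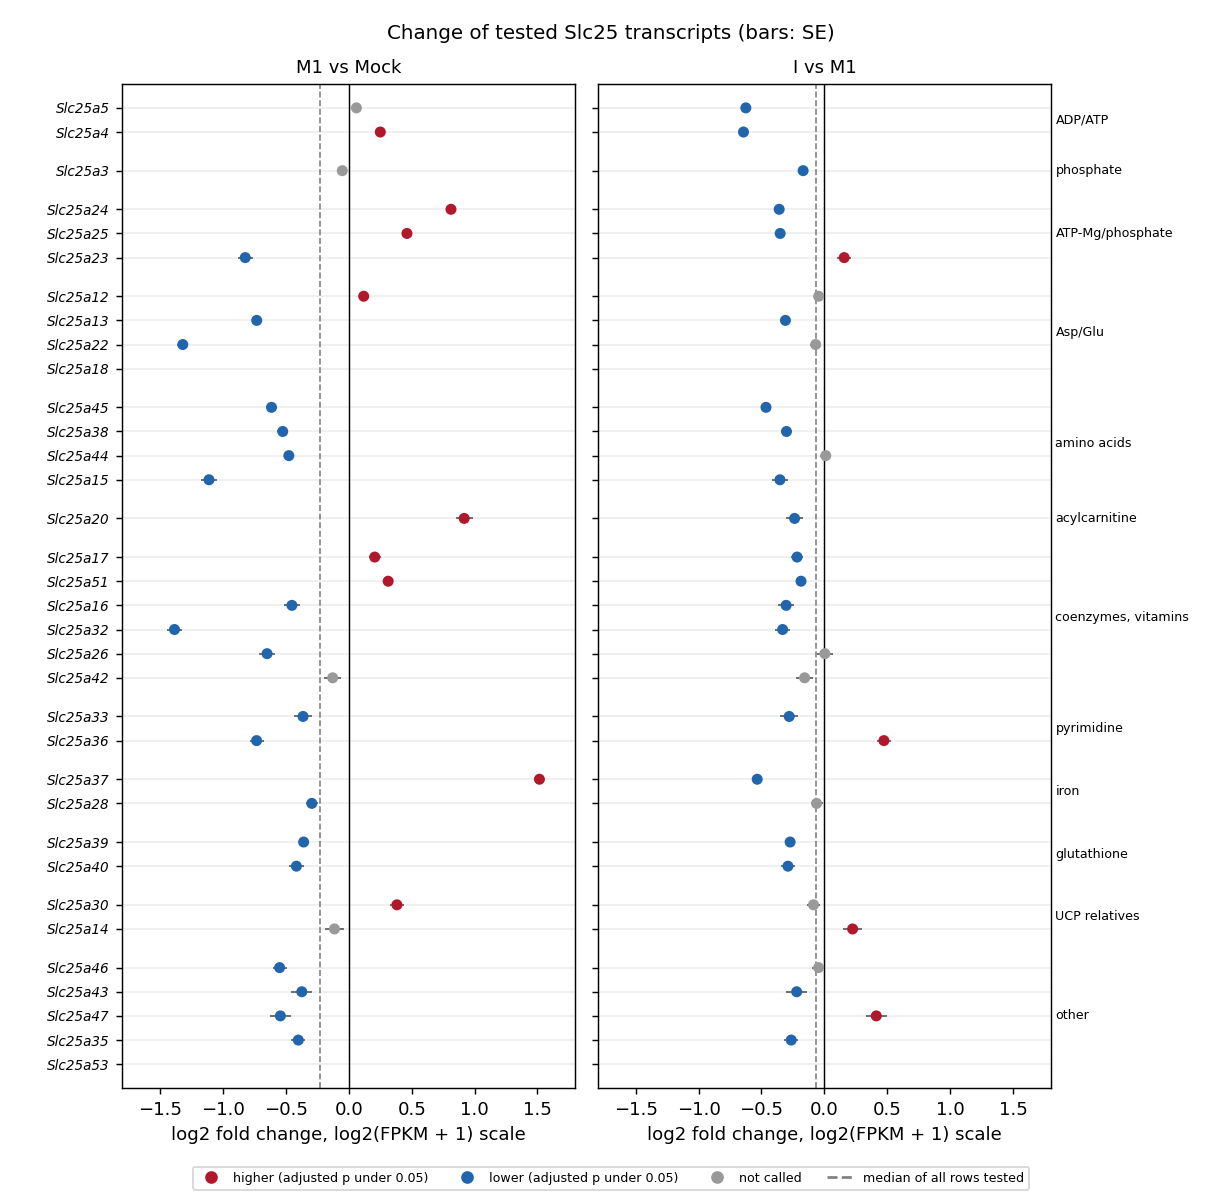
Log2 fold change on the log2(FPKM + 1) scale with its SE for 32 of the tested members, with M1 vs Mock on the left and I vs M1 on the right, coloured by call at a limma adjusted p under 0.05. The dashed line is the median of all 11156 rows (−0.23 on the left and −0.07 on the right). In M1 vs Mock the members spread from −1.38 for Slc25a32 to 1.52 for Slc25a37, and in I vs M1 from −0.64 for Slc25a4 to 0.47 for Slc25a36.

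The ADP/ATP carriers export ATP made in the matrix and import ADP, and both were lower with potassium iodide. Slc25a5 (Ant2; ENSMUSG00000016319.3, GRCm38 chromosome X, 36795651 to 36798807, plus strand) is the isoform that dominates in proliferating mouse cells. It read 342, 325 and 329 FPKM in I, 514, 519 and 504 FPKM in M1 and 481, 499 and 493 FPKM in Mock. The I libraries lay far below the other 6, and the M1 libraries just above the Mock libraries. The log2 fold change in I vs M1 was −0.62 ± 0.027 (SE, limma adjusted p = 1.55e-08), that is 35.2% lower. In M1 vs Mock it was 0.06 and not called (adjusted p = 0.0546). It was called without the first I library (adjusted p = 0.0401) and with limma-voom on recovered fragments (0.063, adjusted p = 0.0204). Scaling decided its direction, with 0.38 under RLE and −0.44 under quantile scaling, both called. Of the 50-base words in the Slc25a5 transcripts, 33.8% also occur in transcripts of 9 other genes, so its counted level depends on how the authors assigned such reads.

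Slc25a4 (Ant1; ENSMUSG00000031633.4, chromosome 8, 46206797 to 46211284, minus strand) is the isoform best known from heart and muscle. It read 46.8, 45.5 and 49.0 FPKM in I, 72.5, 74.4 and 75.5 FPKM in M1 and 60.5, 61.3 and 64.6 FPKM in Mock. The 3 groups did not overlap, with M1 highest and I lowest. It fell by 0.64 ± 0.035 on the log2 scale in I vs M1 (adjusted p = 8.08e-08) and rose by 0.25 in M1 vs Mock (adjusted p = 3.7e-05). Against Mock, I was lower by 24.2% (adjusted p = 7.48e-07), which RLE scaling removed (log2 fold change −0.02). No 50-base word of Slc25a4 occurs in another gene's transcripts, so shared sequence of the kind found in Slc25a5 was absent from it.

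The ratio of Slc25a4 to Slc25a5 FPKM averaged 0.142 ± 0.0062 in I, 0.145 ± 0.0044 in M1 and 0.127 ± 0.0041 in Mock (SD, n = 3 each). In I vs M1 the log2 ratio differed by −0.03 ± 0.044 (SE), less than the spread, with an exact two-sided permutation p of 0.5. In M1 vs Mock it differed by 0.19 ± 0.037 with no overlap (exact permutation p = 0.1). With 3 libraries against 3, 0.1 is the smallest p that this test can give, and over the 18 ratio tests made here the adjusted value is 0.12 at best.

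Slc25a3, the phosphate carrier that supplies phosphate for ATP synthesis and also brings copper into the matrix, had a mean level between Slc25a5 and Slc25a4. It read 87.8, 86.5 and 85.4 FPKM in I, 98.7, 95.7 and 98.1 FPKM in M1 and 101, 102 and 99.9 FPKM in Mock. The I libraries were lowest, while M1 and Mock lay close together. Its log2 fold change was −0.17 ± 0.023 in I vs M1 (adjusted p = 9.43e-05) and −0.05 in M1 vs Mock (not called, adjusted p = 0.0624, but 0.0474 without the first M1 library). Scaling gave called values in M1 vs Mock of 0.26 with RLE and −0.24 with quantiles. In I vs Mock it was −0.22 (adjusted p = 3.8e-06), and with RLE scaling this turned to 0.16 (adjusted p = 7.03e-05), so its direction against Mock depends on the scaling.

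These 3 genes made up most of the summed FPKM of the 35 members. FPKM divides fragments by gene length, so this is not their share of the fragments. The summed FPKM of the 35 members was 768 ± 8.5 in I, 1052 ± 7.0 in M1 and 1003 ± 11.5 in Mock (SD, n = 3 each). Slc25a5 held 43.2% of that sum in I, 48.7% in M1 and 48.9% in Mock, and Slc25a5, Slc25a3 and Slc25a4 together held 60.7%, 65.0% and 65.2% of it in I, M1 and Mock. The sum was 27.0% lower in I than in M1. Of that difference of −284 FPKM, 63.4% was Slc25a5, 9.50% was Slc25a4 and 8.66% was Slc25a37. Without Slc25a5 the sum was 19.3% lower, at 436 FPKM in I and 540 FPKM in M1. With RLE scaling the sum was still 23.5% lower in I than in M1, whereas its position against Mock was decided by the scaling. It was 23.5% lower in I than in Mock as deposited and 0.186% lower with RLE scaling, and the 4.87% excess of M1 over Mock became 30.5%.

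**Figure D3:**
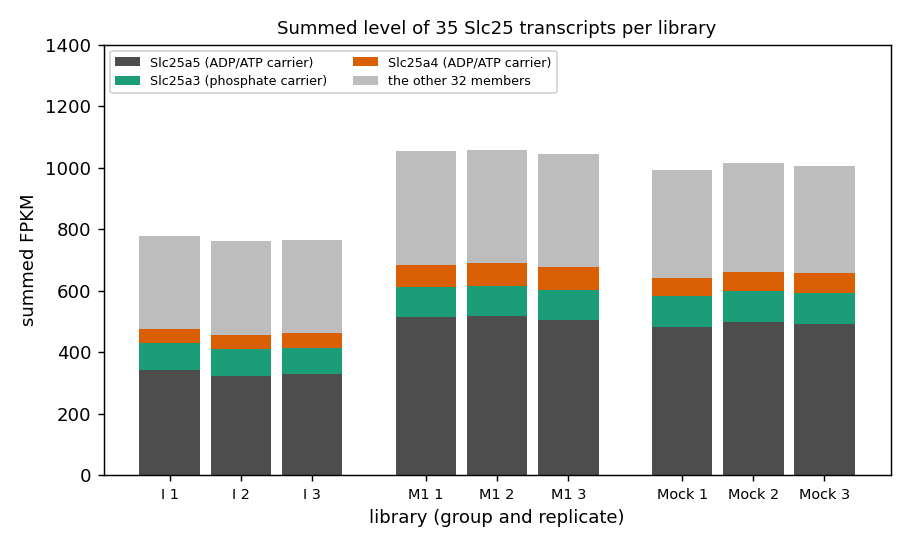
Summed FPKM of the 35 members in each library, stacked into Slc25a5, Slc25a3, Slc25a4 and the other 32 members. The 3 I bars end at 761 to 777 FPKM, below the M1 bars (1044 to 1058) and the Mock bars (991 to 1014), and Slc25a5 is the largest piece of each bar.

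The ATP-Mg/phosphate carriers shift the size of the matrix adenine nucleotide pool in response to calcium. Slc25a24 (ENSMUSG00000040322.10, chromosome 3, 109123149 to 109168457, plus strand) was the most abundant. It read 44.2, 45.3 and 46.0 FPKM in I, 60.3, 57.1 and 57.4 FPKM in M1 and 31.2, 33.4 and 33.5 FPKM in Mock. The 3 groups were fully separate, with I between M1 and Mock. It fell by 0.36 in I vs M1 (adjusted p = 6.65e-06) and was higher by 0.81 ± 0.035 in M1 vs Mock (adjusted p = 1.38e-09). Its paralog Slc25a25 took the same order at a lower level, with means of 6.16 ± 0.21 FPKM in I, 8.14 ± 0.28 in M1 and 5.63 ± 0.10 in Mock. Its I vs Mock call was lost without the second Mock library and without the second or the third I library (adjusted p = 0.0682 to 0.0753). The third of the group, Slc25a23, went the other way. Its mean was 3.39 ± 0.30 FPKM in I, 2.93 ± 0.14 in M1 and 5.96 ± 0.22 in Mock. It was lower in M1 vs Mock (log2 fold change −0.82), and its rise in I vs M1 (0.16, adjusted p = 0.0346) came with overlapping libraries. That rise was not called with the replicate number as a block (adjusted p = 0.0543), nor without the first or the third library of I or of M1 (adjusted p = 0.0639 to 0.122).

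Carriers of aspartate and glutamate serve the malate-aspartate shuttle, which brings reducing equivalents into the matrix. The pair Slc25a12 (aralar) and Slc25a13 (citrin) encode its calcium-binding aspartate-glutamate exchangers, and they differed. Slc25a12 read 16.3, 16.7 and 16.6 FPKM in I, 16.9, 17.1 and 17.4 FPKM in M1 and 16.0, 15.7 and 15.3 FPKM in Mock. Its deposited levels stayed within a narrow range. Its rise in M1 vs Mock was 0.12 on the log2 scale (adjusted p = 0.00317) and 0.41 with RLE scaling (limma adjusted p = 1.32e-07). In I vs M1 it was not called (−0.05, adjusted p = 0.203), with a sign that turned under RLE scaling.

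Slc25a13 averaged 11.1 ± 0.17 FPKM in I, 14.0 ± 0.31 in M1 and 23.8 ± 0.34 in Mock, with no overlap between any groups. It fell by 0.31 in I vs M1 (adjusted p = 6.89e-06) and by 0.73 in M1 vs Mock (adjusted p = 9.98e-10). The ratio of Slc25a12 to Slc25a13 was therefore 1.5 ± 0.039 in I, 1.23 ± 0.015 in M1 and 0.658 ± 0.0080 in Mock. The log2 ratio differed by 0.29 ± 0.024 in I vs M1 and by 0.90 ± 0.014 in M1 vs Mock (exact permutation p = 0.1 for each). By FPKM, Slc25a12 was the more abundant of the pair in all 6 polarized libraries and Slc25a13 in all 3 Mock libraries. That order depends on the exon lengths divided by, 7342 bases for Slc25a12 and 3798 for Slc25a13. In recovered fragments Slc25a12 was the higher in every library.

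Slc25a22, which carries glutamate with a proton, was among the strongest falls of polarization. It read 6.03, 6.28 and 5.82 FPKM in I, 6.04, 6.33 and 6.81 FPKM in M1 and 17.5, 17.2 and 17.6 FPKM in Mock. The I and M1 libraries overlapped, and all 6 lay far below Mock. The log2 fold change was −0.07 in I vs M1 (adjusted p = 0.195) and −1.32 ± 0.045 in M1 vs Mock (adjusted p = 1.89e-10). The other glutamate carrier, Slc25a18, held 1 to 15 fragments a library, too few to compare.

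All 4 of the other amino acid carriers were lower in M1 than in Mock, and 3 of them were lower in I than in M1, beside 55.3% and 39.3% of all rows. Slc25a45 had the highest mean over all libraries (12.3 FPKM, against 12.2 for Slc25a38), though Slc25a38 was the higher in I. Slc25a45 read 8.15, 8.0 and 7.55 FPKM in I, 10.8, 11.6 and 11.4 FPKM in M1 and 18.1, 18.3 and 17.0 FPKM in Mock. The groups formed separate steps, with I lowest. It fell by 0.46 ± 0.043 in I vs M1 (adjusted p = 4.59e-06) and by 0.61 in M1 vs Mock (adjusted p = 9.56e-08). Slc25a15, the ornithine carrier that links mitochondria to the urea cycle and polyamine synthesis, read 0.285, 0.309 and 0.277 FPKM in I, 0.687, 0.691 and 0.570 FPKM in M1 and 2.59, 2.79 and 2.31 FPKM in Mock. As a ratio of means, I stood at 0.447 of M1 and M1 at 0.253 of Mock (adjusted p = 0.000541 and 1.41e-08). These are low levels, at 30 to 34 fragments a library in I.

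Slc25a38, which imports glycine for heme synthesis, averaged 8.90 ± 0.24 FPKM in I, 11.2 ± 0.58 in M1 and 16.6 ± 0.62 in Mock, and was called lower in I vs M1 (−0.30) and in M1 vs Mock (−0.52). Slc25a44, the branched-chain amino acid carrier, averaged 7.91 ± 0.31 FPKM in I, 7.84 ± 0.11 in M1 and 11.3 ± 0.50 in Mock. It was lower in M1 vs Mock (−0.48) and not called in I vs M1 (adjusted p = 0.838).

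The carnitine-acylcarnitine carrier Slc25a20, which admits fatty acids to the matrix for oxidation, was higher after polarization. It read 6.61, 6.05 and 5.87 FPKM in I, 7.25, 7.32 and 7.79 FPKM in M1 and 3.61, 3.81 and 3.03 FPKM in Mock. Every I library lay between the M1 and the Mock libraries. It rose by 0.92 ± 0.068 in M1 vs Mock (adjusted p = 1.64e-07) and was lower by 0.24 in I vs M1 (adjusted p = 0.0105).

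Of 7 coenzyme and vitamin carriers tested, 3 were higher and 3 lower in M1 vs Mock, where 30.5% of all rows were higher and 55.3% lower. The I vs M1 counts were 0 higher and 4 lower, where 24.9% of all rows were higher and 39.3% lower. Slc25a32 carries folate. It read 1.43, 1.35 and 1.09 FPKM in I, 1.79, 1.93 and 1.92 FPKM in M1 and 6.32, 6.58 and 6.64 FPKM in Mock. Its groups were separate, with Mock several-fold above the rest. M1 stood at 0.288 of Mock (log2 fold change −1.38 ± 0.062, adjusted p = 1.89e-09), and I at 0.687 of M1 (−0.33, adjusted p = 0.000766).

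Slc25a17, which carries coenzyme A and other nucleotide cofactors in peroxisomes, was the most abundant of the group. It read 14.9, 16.0 and 16.5 FPKM in I, 18.9, 18.4 and 18.1 FPKM in M1 and 15.9, 16.9 and 14.9 FPKM in Mock. The M1 libraries stood above the other 6, and I and Mock overlapped. It was higher by 0.21 in M1 vs Mock (adjusted p = 0.00203) and lower by 0.22 in I vs M1 (adjusted p = 0.00254). In I vs Mock it was not called (−0.01), with a sign that turned under RLE (0.35, adjusted p = 3.51e-05) and quantile scaling (0.22, adjusted p = 0.00276).

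Slc25a51, the mitochondrial NAD carrier, averaged 9.34 ± 0.31 FPKM in I, 10.8 ± 0.40 in M1 and 8.46 ± 0.075 in Mock, and was called in all 3 comparisons. The coenzyme A carrier gene Slc25a16 averaged 2.44 ± 0.29 FPKM in I, 3.24 ± 0.12 in M1 and 4.80 ± 0.26 in Mock, lower in I vs M1 (−0.30) and in M1 vs Mock (−0.45, a call lost with quantile scaling). Slc25a26, the S-adenosylmethionine carrier, averaged 0.503 ± 0.097 FPKM in I, 0.497 ± 0.036 in M1 and 1.35 ± 0.10 in Mock. It was lower in M1 vs Mock (−0.65) and not called in I vs M1 (adjusted p = 0.964). Slc25a42, another coenzyme A carrier, averaged 0.348 ± 0.044 FPKM in I, 0.506 ± 0.11 in M1 and 0.642 ± 0.035 in Mock and was called in I vs Mock (−0.29) only, a call lost with quantile scaling (−0.0921, adjusted p = 0.254). In I vs M1 it missed the threshold (adjusted p = 0.0537). It was called there with a pseudocount of 0.1 (adjusted p = 0.0493), with no filter (0.036), with limma-voom (0.023) and without the third M1 library (adjusted p = 0.0103).

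The pyrimidine nucleotide carriers supply building blocks for mitochondrial DNA and RNA, and the 2 moved in opposite directions with potassium iodide. Slc25a36 (ENSMUSG00000032449.13, chromosome 9, 97074961 to 97111157, minus strand), whose upstream stretch is printed above, read 7.37, 8.17 and 7.43 FPKM in I, 5.65, 4.90 and 5.18 FPKM in M1 and 9.82, 9.0 and 9.26 FPKM in Mock. The I libraries fell between the M1 and Mock libraries with no overlap. It rose by 0.47 ± 0.056 in I vs M1 (adjusted p = 3.01e-05), and was lower by 0.73 in M1 vs Mock (adjusted p = 2.19e-07). In I vs Mock it was lower by 0.26 (adjusted p = 0.00113), a difference that turned to 0.08 with RLE and 0.0557 with quantile scaling and was called with neither.

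Slc25a33 read 8.52, 8.68 and 7.96 FPKM in I, 9.27, 11.2 and 10.8 FPKM in M1 and 12.6, 14.7 and 13.7 FPKM in Mock. The groups were separate, with I lowest. It fell by 0.28 ± 0.070 in I vs M1 (adjusted p = 0.00477) and by 0.36 in M1 vs Mock (adjusted p = 0.000488), of which the M1 vs Mock call was lost with RLE and with quantile scaling. Its exons overlap an antisense gene over 14.9% of their bases, and whether the counting used strand is not given in the sources used here. Reads from those shared bases therefore cannot be assigned to 1 of the 2 genes here. The ratio of Slc25a33 to Slc25a36 averaged 1.10 ± 0.052 in I, 2.01 ± 0.33 in M1 and 1.47 ± 0.17 in Mock. The log2 ratio differed by −0.86 ± 0.15 in I vs M1 and by 0.44 ± 0.17 in M1 vs Mock (exact permutation p = 0.1 for each).

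Slc25a37, or mitoferrin 1, imports iron for heme and iron-sulfur cluster synthesis and is best known from red cell precursors. Its gene (ENSMUSG00000034248.7, chromosome 14, 69241848 to 69285112, minus strand) gave the largest rise of the family on polarization. It read 52.5, 53.5 and 56.0 FPKM in I, 79.5, 78.8 and 77.6 FPKM in M1 and 27.0, 26.9 and 26.6 FPKM in Mock. The 3 groups formed separate levels with little spread inside each. M1 was 2.93 times Mock (log2 fold change 1.52 ± 0.028, adjusted p = 1.92e-12), I was 0.687 of M1 (−0.53 ± 0.028, adjusted p = 6.77e-08) and I was 2.01 times Mock (0.98, adjusted p = 4.21e-11). Genes on the opposite strand overlap 6.33% of its exon bases.

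Slc25a28, or mitoferrin 2, the form found in most tissues, averaged 10.7 ± 0.42 FPKM in I, 11.2 ± 0.69 in M1 and 13.9 ± 0.45 in Mock. It was not called in I vs M1 (−0.06, adjusted p = 0.272) and was lower in M1 vs Mock (−0.29, adjusted p = 0.00013), a call lost with RLE (−0.0016) and with quantile scaling (−0.0678). The ratio of Slc25a37 to Slc25a28 averaged 5.08 ± 0.37 in I, 7.05 ± 0.40 in M1 and 1.93 ± 0.061 in Mock. In log2 terms it differed by −0.47 ± 0.076 in I vs M1 and by 1.87 ± 0.054 in M1 vs Mock (exact permutation p = 0.1 for each). These ratios set 2 genes of one library against each other, so a common scaling factor does not move them.

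The glutathione carriers, which keep the matrix supplied with this antioxidant, were both lower with potassium iodide. Slc25a39 read 35.1, 33.6 and 33.7 FPKM in I, 39.0, 43.8 and 41.7 FPKM in M1 and 53.8, 52.2 and 54.2 FPKM in Mock. All groups were separate, with I lowest and Mock highest. It fell by 0.27 ± 0.040 in I vs M1 (adjusted p = 0.000135) and by 0.36 in M1 vs Mock (adjusted p = 5.47e-06), of which the M1 vs Mock call was lost with RLE scaling (−0.05). Slc25a40 averaged 1.42 ± 0.10 FPKM in I, 1.96 ± 0.17 in M1 and 2.95 ± 0.12 in Mock and was lower in I vs M1 (−0.29) and in M1 vs Mock (−0.42, a call lost with quantile scaling). The ratio of Slc25a39 to Slc25a40 was 24.1 ± 1.8 in I, 21.2 ± 1.9 in M1 and 18.1 ± 0.72 in Mock, and the I and M1 values overlapped (exact permutation p = 0.2).

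**Figure D4:**
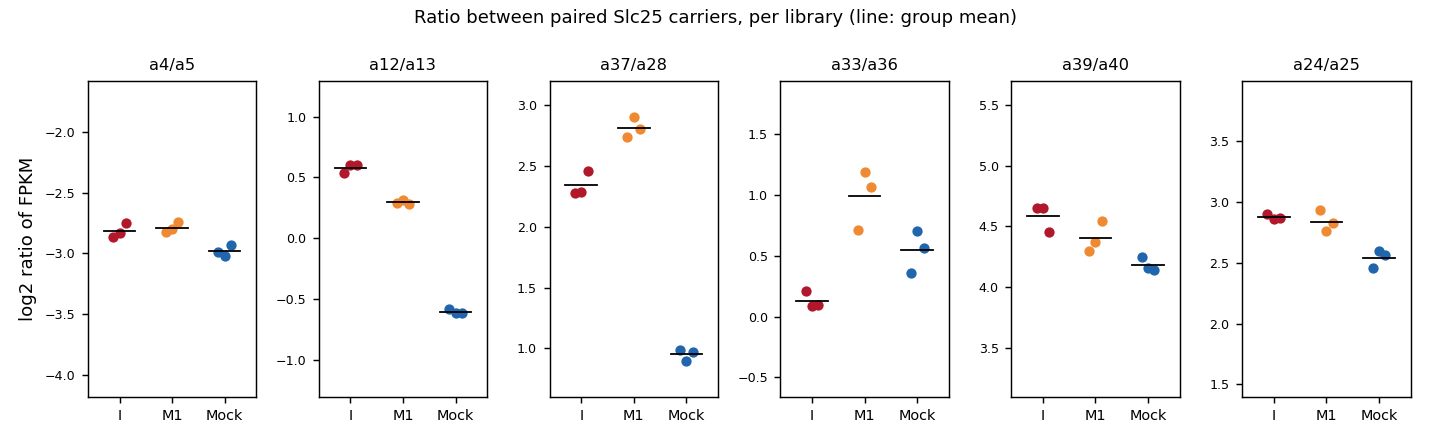
Log2 ratio of FPKM within 6 carrier pairs in each library, with I, M1 and Mock from left to right and the group mean as a line, each panel spanning the same number of log2 units. The Slc25a12/Slc25a13 ratio is above 0 in I and M1 and below 0 in Mock, the Slc25a37/Slc25a28 ratio is highest in M1, and the Slc25a4/Slc25a5 and Slc25a24/Slc25a25 ratios overlap between I and M1.

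The plot of pair ratios also holds Slc25a24 against Slc25a25, the ATP-Mg/phosphate carriers. That ratio was 7.34 ± 0.11 in I, 7.17 ± 0.45 in M1 and 5.82 ± 0.29 in Mock, so it overlapped between I and M1 (exact permutation p = 0.6) and not between M1 and Mock (exact permutation p = 0.1).

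There were 2 relatives of the uncoupling proteins, which let protons re-enter the matrix without making ATP. Slc25a30 read 14.0, 13.9 and 14.2 FPKM in I, 16.2, 15.0 and 13.7 FPKM in M1 and 10.8, 11.7 and 11.2 FPKM in Mock. The I libraries lay inside the range of M1, and all 6 were above Mock. It was higher in M1 vs Mock (0.38 ± 0.052, adjusted p = 3.41e-05) and not called in I vs M1 (−0.09, adjusted p = 0.171). Without the third M1 library it was called lower in I vs M1 (−0.14, adjusted p = 0.0215). Slc25a14 averaged 2.41 ± 0.27 FPKM in I, 1.91 ± 0.027 in M1 and 2.16 ± 0.30 in Mock. It was higher in I vs M1 (0.22, adjusted p = 0.0269), a call lost without any 1 of the M1 libraries and without the first or the third I library (adjusted p = 0.0535 to 0.093). With RLE scaling the call stayed (0.28, adjusted p = 0.00947). In I vs Mock Slc25a14 was not called (0.11, adjusted p = 0.202). It was called higher there with RLE (0.37, adjusted p = 0.000907) and with quantile scaling (0.56, adjusted p = 3.73e-05), so that call depends on the scaling.

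Among the members with no substrate given here, Slc25a46, an outer membrane protein linked to mitochondrial shape, read 7.71, 7.38 and 6.96 FPKM in I, 8.11, 6.95 and 7.82 FPKM in M1 and 11.6, 11.9 and 11.3 FPKM in Mock. I and M1 overlapped, both under Mock. It fell by 0.55 in M1 vs Mock (adjusted p = 2.27e-06) and was not called in I vs M1 (−0.05, adjusted p = 0.481, with a sign that turned under RLE scaling). A gene on the opposite strand overlaps 7.06% of its exon bases. Slc25a47, known chiefly from liver, read 0.901, 0.948 and 0.662 FPKM in I, 0.303, 0.475 and 0.358 FPKM in M1 and 0.960, 1.21 and 0.863 FPKM in Mock. Its I and Mock libraries overlapped, and the M1 libraries were lower. It rose by 0.41 ± 0.085 in I vs M1 (adjusted p = 0.00152) and fell by 0.54 in M1 vs Mock (adjusted p = 0.000102), on 18 to 73 fragments a library.

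Slc25a43 averaged 4.16 ± 0.74 FPKM in I, 4.98 ± 0.25 in M1 and 6.74 ± 0.11 in Mock. Its gene lies on chromosome X next to Slc25a5 on the same strand, and 18448 bases separate the end of one from the start of the other. Its fall in I vs M1 (−0.22, adjusted p = 0.0374) came with overlapping libraries and was lost with RLE (adjusted p = 0.107) and quantile scaling (adjusted p = 0.11). It was also lost without any 1 of the M1 libraries and without the first or the third I library (adjusted p = 0.0532 to 0.139). The M1 vs Mock call (−0.37) was also lost with both scalings. Slc25a35 averaged 0.0998 ± 0.050 FPKM in I, 0.320 ± 0.019 in M1 and 0.743 ± 0.060 in Mock, from 4 to 76 fragments a library. It shares 31.3% of its exon bases with Rangrf on the opposite strand, and reads from those bases cannot be assigned to 1 of the 2 genes here. Slc25a53 averaged 0.149 ± 0.023 FPKM in I, 0.224 ± 0.014 in M1 and 0.454 ± 0.11 in Mock and was not tested.

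Genes around the family were read from lists of related genes. Of the family genes outside the 35, 6 were in the files, namely Slc25a1, Slc25a10, Slc25a11, Ucp2, Mtch1 and Mtch2. Of these, 3 were higher and 3 lower in I vs M1, beside 24.9% and 39.3% of all rows. Against Mock, 4 were higher and 2 lower in M1, beside 30.5% and 55.3% of all rows. The dicarboxylate carrier Slc25a10 averaged 13.2 ± 0.85 FPKM in I, 8.88 ± 0.56 in M1 and 10.1 ± 0.56 in Mock, a rise of 0.53 in I vs M1 (adjusted p = 1.77e-05). Mtch2, an insertase of the outer membrane, averaged 8.59 ± 0.18 FPKM in I, 13 ± 0.17 in M1 and 11.8 ± 0.35 in Mock, a fall of 0.55 in I vs M1 (adjusted p = 2.53e-07).

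The import route of the carriers was read from 15 tested genes for TOM receptors, small TIM chaperones and the TIM22 complex. With potassium iodide, 1 was higher than in M1, 7 were lower and 7 were not called, beside 24.9% of all rows higher and 39.3% lower. The M1 vs Mock counts were 2 higher and 10 lower, beside 30.5% and 55.3% of all rows. In both comparisons the counts of lower genes lie near the share over all rows, and the counts of higher genes lie under it. The list's median log2 fold change was −0.18 in I vs M1, where all rows stood at −0.07, and −0.49 in M1 vs Mock, where all rows stood at −0.23. Timm10, a chaperone that escorts carriers across the intermembrane space, averaged 3.01 ± 0.37 FPKM in I, 5.27 ± 1.1 in M1 and 21.2 ± 1.4 in Mock. It was lower in I vs M1 (−0.64, adjusted p = 0.000506) and in M1 vs Mock (−1.84, adjusted p = 2.74e-08). Tomm70a, which encodes the receptor TOM70, averaged 17.9 ± 0.28 FPKM in I, 20.4 ± 0.71 in M1 and 35.5 ± 0.70 in Mock. Timm8b was an exception in M1 vs Mock, with 63.6 ± 4.0 FPKM in I, 67.6 ± 2.5 in M1 and 29.7 ± 2.8 in Mock (M1 vs Mock 1.17, adjusted p = 9.22e-09).

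Of 21 other mitochondrial channels and carriers, 3 were higher and 12 lower in I vs M1, beside 24.9% and 39.3% of all rows. Against Mock, 9 were higher and 9 lower in M1, beside 30.5% and 55.3% of all rows. Among the lower is Sfxn4, at 0.550 to 0.620 FPKM in Mock and at most 0.227 in M1. Sfxn4 passed the filter only through its Mock libraries, so a lower level in M1 was built into its entry. The outer membrane channel Vdac2 averaged 64.2 ± 1.7 FPKM in I, 88.2 ± 2.0 in M1 and 77.2 ± 1.1 in Mock, lower by 0.45 in I vs M1 (adjusted p = 2.13e-07). Its paralog Vdac1 averaged 159 ± 1.8 FPKM in I, 166 ± 4.3 in M1 and 90.5 ± 2.0 in Mock and was not called in I vs M1 (adjusted p = 0.09). Mpc1, a subunit of the mitochondrial pyruvate carrier, averaged 5.99 ± 0.16 FPKM in I, 8.39 ± 0.71 in M1 and 4.80 ± 0.62 in Mock and was called in both comparisons. Mcub, a dampening subunit of the calcium uniporter, averaged 47.7 ± 1.7 FPKM in I, 60.9 ± 1.4 in M1 and 19.9 ± 0.45 in Mock.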

How the data were processed

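Total RNA of 9 RAW264.7 libraries was selected for poly(A), per the labels' protocols. The deposited values are FPKM, fragments divided by gene length and by library size, made by the authors. No header states the unit, which follows from the numbers themselves. The submitters' processing notes name GRCm38 and list fastp 0.20.1, HISAT2 2.2.1, and featureCounts 2.0.1 from Subread. Which options and which annotation they used, and whether strand was considered, is not given in the sources used here. The files have 12474 rows, with a value above 0 in every library, so genes at 0 anywhere were not analysed here.

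With GENCODE vM21 exon lengths (97.8% of rows), FPKM gave whole fragments within 0.05 for 98.4% to 98.6% of values, which puts the totals at 17431070 to 25470730. A single fragment on 1 kb is worth 0.0393 to 0.0574 FPKM.

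Rows with at least 0.5 FPKM in at least 3 libraries (11156) were fitted on log2(FPKM + 1) with limma 3.58.1 in R 4.3.3, with 1 term per group, moderated variances with an intensity trend, and Benjamini-Hochberg adjustment over all rows. Log2 fold changes on this scale understate the change of low genes, and ratios are of mean FPKM. The fit was also run on simulated data, whose outcome is not given here. Those data were drawn as independent libraries, so they cannot show whether the real libraries were independent. Pair ratios were tested by exact permutation. Same-numbered libraries of different groups did not deviate together (r of -0.115 to 0.047), so the numbers were not taken as pairs. Alternatives were a pseudocount of 0.1, no filter, scaling by RLE or by quantiles, limma-voom run on recovered fragments, leaving out each library, and a replicate block. The sum without Slc25a5 was added after the data had been seen.

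The members and all lists, tests and filters were chosen with earlier results of these data known. All 9 values are given for the 6 called members with the largest change in M1 vs Mock, the same in I vs M1, the 3 highest members and the highest of each substrate group (19 genes, 18 of them reported). The values of 1 member are not reported here, though it stays in all counts and sums. Other members are given by mean ± SD of 3 libraries. Which related genes are named was chosen after their values were seen. Promoter windows are from RefSeq, and no protein sequences were used here.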

Additional observations from a re-analysis of the deposited data

How the results depend on the processing

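The counts of members called stayed within 1.5 times of the reported counts under every alternative, except the 4 members higher in I vs M1, which became 2 to 4 when 1 library was left out. The other counts then ranged over 19 to 21 lower in I vs M1, 10 to 11 higher and 18 to 20 lower in M1 vs Mock, and 6 to 8 higher and 21 to 22 lower in I vs Mock. Without a Mock library Slc25a35 fell below the filter and 32 members were tested. With the replicate block the counts were 3 higher and 20 lower in I vs M1, 10 and 19 in M1 vs Mock, and 7 and 22 in I vs Mock. Slc25a23 in I vs M1 (adjusted p = 0.0543) and Slc25a12 in I vs Mock (adjusted p = 0.0679) lost their calls, and the replicate block changed no other call.

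Signs that turned belonged to the following log2 fold changes. In M1 vs Mock, RLE scaling gave 0.26 for Slc25a3 and 0.10 for Slc25a14, and quantile scaling gave −0.44 for Slc25a5, 0.27 for Slc25a14 and 0.0701 for Slc25a42. In I vs M1, RLE scaling gave 0.0179 for Slc25a12 and 0.0135 for Slc25a46, and limma-voom gave −0.0186 for Slc25a26. In I vs Mock, RLE scaling gave 0.16 for Slc25a3, 0.0823 for Slc25a36, 0.35 for Slc25a17 and 0.051 for Slc25a47, and quantile scaling gave 0.0557, 0.22 and 0.19 for Slc25a36, Slc25a17 and Slc25a47. Leaving out 1 library gave −0.0162 to 0.0332 for Slc25a44 and −0.0302 to 0.0578 for Slc25a26 in I vs M1, and −0.0543 to 0.0316 for Slc25a17 in I vs Mock. The log2 ratio of Slc25a24 to Slc25a25 in I vs M1 ranged from −0.0054 to 0.083, with the reversed sign without the second M1 library. RLE scaling moves every value of a library by one factor (0.903 to 0.91 in I, 0.943 to 0.957 in M1 and 1.18 to 1.19 in Mock). For the other turns the cause was not tested. Depth limits Slc25a15, Slc25a18, Slc25a26, Slc25a35, Slc25a42, Slc25a47 and Slc25a53, each under 50 fragments in at least 1 library.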
